A study of Mus musculus with 4 samples.

Results

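The genes described here are the chains of the major histocompatibility complex (MHC) class II molecule, the chains that load it with peptide, and 2 of its transcription regulators. They are 9 genes, chosen by symbol among the 32285 genes of the count tables: H2-Aa, H2-Ab1, H2-Eb1, Cd74, H2-DMa, H2-DMb1, H2-DMb2, Ciita and Rfx5. Single cells were sorted from the brain for CD45 and CD11b after 5 wk of a diet with 0.2% cuprizone (CPZ), a copper chelator that causes demyelination, and captured in droplets with 3′ tags. The 2 PRMT1FL mice carried floxed alleles of Prmt1, a protein arginine methyltransferase, on a C57BL/6 background, and their label gives them as wild type. The 2 PRMT1Cx3cr1-KO mice carried the same floxed alleles and a tamoxifen-inducible Cre recombinase driven by Cx3cr1. The methods place tamoxifen on 5 consecutive days at 5 to 6 wk of age, with the diet beginning 2 wk later, whereas in the labels the same age belongs to the diet. Both groups received CPZ, so no value here is from an untreated brain. Cx3cr1 is active in other macrophages as well as in microglia, so the deletion was not limited to microglia by design. The label calls the sorted cells quiescent microglia. The methods give separate mice for the libraries, which the labels only number 1 and 2.

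An MHC class II molecule is a pair of an alpha and a beta chain that shows peptides from engulfed material to CD4+ T cells. The invariant chain, encoded by Cd74, guards the groove until H2-DM, itself a heterodimer, exchanges its remnant for a peptide. Transcription of this set depends on an enhanceosome (RFX, NF-Y and CREB family factors) on the X and Y boxes of each promoter, which is assembled without CIITA but is active only when CIITA, the class II transactivator, joins it. In the brain, class II transcripts are scarce in resting microglia, increase around demyelination, and are high in many macrophages of the brain's borders.

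Promoters are shown because they carry the sites at which both regulators work. RefSeq promoters (GRCm38.p6) matched 6 of the 9 genes by symbol, and Cd74, H2-Ab1 and Ciita had no entry. Each line gives 120 bases from 130 before to 10 before the RefSeq start, 5′ to 3′ along the gene. Capitals mark the letters AAC of the X box and ATTGG, the core of the Y box, where AAC lies 25 to 30 bases before ATTGG on either strand. This spacing was chosen after the sequences were seen.
H2-Aa promoter: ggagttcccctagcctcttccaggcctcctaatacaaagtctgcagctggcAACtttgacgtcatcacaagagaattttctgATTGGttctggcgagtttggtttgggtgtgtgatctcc
H2-Eb1 promoter: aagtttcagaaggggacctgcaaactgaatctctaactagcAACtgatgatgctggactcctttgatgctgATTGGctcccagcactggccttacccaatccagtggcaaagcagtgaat
H2-DMb1 promoter: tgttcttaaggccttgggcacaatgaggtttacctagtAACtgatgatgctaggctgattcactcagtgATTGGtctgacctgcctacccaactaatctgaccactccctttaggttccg
H2-DMb2 promoter: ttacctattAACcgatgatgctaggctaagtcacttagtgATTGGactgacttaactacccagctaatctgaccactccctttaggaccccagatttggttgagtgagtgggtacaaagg
H2-DMa promoter: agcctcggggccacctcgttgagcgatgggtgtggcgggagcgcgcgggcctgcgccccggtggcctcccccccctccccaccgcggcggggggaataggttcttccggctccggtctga
H2-Aa (chr17:34287834-34287953, minus strand), H2-Eb1 (chr17:34305737-34305856), H2-DMb1 (chr17:34153061-34153180) and H2-DMb2 (chr17:34145119-34145238), the last 3 on the plus strand, each held 1 such pair, with a gap of 27 or 28 bases. The first of 2 RefSeq starts of H2-DMa (chr17:34122702-34122821, plus strand) held none, nor did its second start or Rfx5. GENCODE M21 begins H2-DMa at 34119541, upstream of both windows, and which start these cells use was not tested. The pair was present in 3.63% of 32851 RefSeq promoters of 300 bases, and ATTGG alone in 37.4% of them. GCAAC, a longer run of X box letters, overlapped the pair of H2-Aa and of H2-Eb1, lay elsewhere in H2-DMa and Rfx5, was not in H2-DMb1 or H2-DMb2, and is in 35.2% of all promoters on either strand. The pair was thus printed for H2-Aa and H2-Eb1, which had much lower levels in PRMT1Cx3cr1-KO microglia. It was also printed for H2-DMb1, which was slightly lower there, and H2-DMb2, which was slightly higher. Their values follow. A match of letters is a description of sequence and not of binding.

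In GENCODE M21 (GRCm38) the H2 genes lie together on chromosome 17: H2-DMa at 34119541 to 34139101, H2-DMb2 at 34143307 to 34151555, H2-DMb1 at 34153072 to 34160230, H2-Ab1 at 34257689 to 34269419, H2-Aa at 34282744 to 34287823 (minus strand) and H2-Eb1 at 34305867 to 34316674. Ciita lies on chromosome 16 (10480059 to 10528418) and Rfx5 on chromosome 3 (94954075 to 94961561), both on the plus strand. H2-DMb1 and H2-DMb2 are neighbouring copies of a beta chain gene, so reads that both could match make their separate values uncertain.

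The 4 libraries, 1 per mouse, held 76943248 to 99559644 unique molecular identifiers (UMIs, each standing for 1 captured RNA molecule), and 8170 to 11427 cells passed the limits on genes and mitochondrial UMIs. Between 31 and 46 barcodes were shared by any pair of libraries. Prmt1 itself was at 91.2 and 84.1 UMIs per 1000000 UMIs of the class (CPM) in PRMT1FL microglia and at 70.4 and 71.3 CPM in PRMT1Cx3cr1-KO microglia (edgeR, log2 fold change -0.38, standard error (SE) 0.07, adjusted p = 0.0899). The part of Prmt1 that was deleted is not resolved by counts per gene. The 2 replicates of each group differed by more than counting error.

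Cells were grouped without using any of the 9 genes. The 6 clusters taken as microglia (numbered 0 to 5) had summed levels of microglial markers at least 2 times those of every other marker list, and held 10903 and 7754 PRMT1FL cells (mouse 1, mouse 2) and 9987 and 10106 PRMT1Cx3cr1-KO cells. All 8 microglial markers were detected in all 4 mice, and summed to 11601 and 11966 CPM in PRMT1FL mice and 10658 and 10919.7 CPM in PRMT1Cx3cr1-KO mice. All 9 border macrophage markers were detected in the same microglia, at a sum of 47.5 and 51.2 CPM against 67.1 and 146 CPM, and their part in the results was not tested. Cells outside these clusters, apart from those with Mrc1, made up 3.35 and 3.77% of PRMT1FL cells and 2.64 and 5.65% of PRMT1Cx3cr1-KO cells. They include 3 small clusters led by Ms4a7 and Clec12a that lie mostly in PRMT1Cx3cr1-KO mouse 2 (526 cells, against 110 in mouse 1 and 24 and 6 in PRMT1FL mice). Those 3 clusters also had microglial markers at least 2 times every other list. They were left out because Ms4a7, a border macrophage marker, was among their leading genes and no microglial marker was. Mrc1-positive cells are all cells with at least 2 UMIs of Mrc1, the mannose receptor of border macrophages, and numbered 141, 108, 109 and 180, in the order PRMT1FL mouse 1, PRMT1FL mouse 2, PRMT1Cx3cr1-KO mouse 1 and PRMT1Cx3cr1-KO mouse 2, which is kept throughout.

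In microglia, 4 genes of the class II molecule and 1 regulator were much lower in each PRMT1Cx3cr1-KO mouse than in either PRMT1FL mouse. The other regulator and the loading chains were closer to equal. H2-Aa, H2-Eb1, Cd74 and Ciita stood at 15.4 to 22.2% of the PRMT1FL mean and H2-Ab1 at 40.1%. H2-DMa and Rfx5 stood at 100.03 and 102% of it. None of the 9 members passed an adjusted p of 0.05 in edgeR's quasi-likelihood test, in which 14 of 13917 genes (0.101%) were called lower. At an unadjusted p under 0.05 the same fit had 2705 genes and 6 members, and DESeq2 called 5 members (H2-Aa, H2-Ab1, H2-Eb1, H2-DMb1 and Ciita), with 265 of 13705 genes (1.93%) called lower. Levels of both PRMT1Cx3cr1-KO mice below both PRMT1FL mice were found for 6 of the 9 members and for 17.7% of all genes tested. With 2 mice against 2, an exact permutation test of a single gene cannot give a two-sided p below 0.333.

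H2-Aa, the alpha chain of I-A, was at 126 and 172 CPM in PRMT1FL mice and at 36.1 and 9.74 CPM in PRMT1Cx3cr1-KO mice. The groups did not overlap, and the PRMT1Cx3cr1-KO mice differed from each other by a larger ratio than the PRMT1FL mice did. edgeR gave a log2 fold change of -2.76 (SE 0.58, adjusted p = 0.102).

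H2-Ab1, the beta chain that pairs with it, was at 126 and 163 CPM in PRMT1FL mice and at 69.6 and 46.2 CPM in PRMT1Cx3cr1-KO mice. It was the least lowered of the chains (edgeR, log2 fold change -1.39, SE 0.23, adjusted p = 0.0791). H2-Eb1, the beta chain of I-E, was at 61.7 and 89.6 CPM against 19.0 and 6.96 CPM, with no overlap (edgeR, log2 fold change -2.61, SE 0.47, adjusted p = 0.0894).

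Cd74, the invariant chain and the most abundant member in PRMT1FL microglia, was at 719 and 964 CPM in PRMT1FL mice and at 289 and 84.7 CPM in PRMT1Cx3cr1-KO mice. By edgeR the log2 fold change of -2.23 (SE 0.55, adjusted p = 0.123) again came with a large ratio between the 2 PRMT1Cx3cr1-KO mice and no overlap with PRMT1FL. For all 4 of these genes PRMT1Cx3cr1-KO mouse 2 was the lowest.

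The loading chains were closer to equal between the groups. H2-DMa, the alpha chain of H2-DM, was at 277 and 298 CPM in PRMT1FL mice and at 274 and 301 CPM in PRMT1Cx3cr1-KO mice, and the groups overlapped. The interval of its log2 fold change ran from -0.25 to 0.10 (95%, edgeR). H2-DMb1, a beta chain of H2-DM, was at 107 and 120.2 CPM against 98.3 and 93.2 CPM. That difference is small but without overlap (edgeR, log2 fold change -0.32, SE 0.09, adjusted p = 0.142). H2-DMb2, the neighbouring copy, was at 6.60 and 6.53 CPM against 8.01 and 7.76 CPM, so it was the only member with both PRMT1Cx3cr1-KO mice above both PRMT1FL mice (edgeR, log2 fold change 0.19, SE 0.08, adjusted p = 0.281).

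Of the regulators, Ciita is a scarce transcript and Rfx5 a little less so. Ciita had 84 and 118 UMIs in PRMT1FL microglia and 31 and 11 UMIs in PRMT1Cx3cr1-KO microglia, which is 0.955 and 1.61 CPM against 0.384 and 0.122 CPM. The groups did not overlap, and the log2 fold change by edgeR, -2.42 (SE 0.53, adjusted p = 0.107), was of the size of those of H2-Aa and H2-Eb1. Rfx5, the DNA-binding subunit of the RFX complex, was at 6.37 and 6.75 CPM against 7.02 and 6.35 CPM. Its groups overlapped, and the 95% interval of its log2 fold change ran from -0.29 to 0.20.

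**Figure D1:**
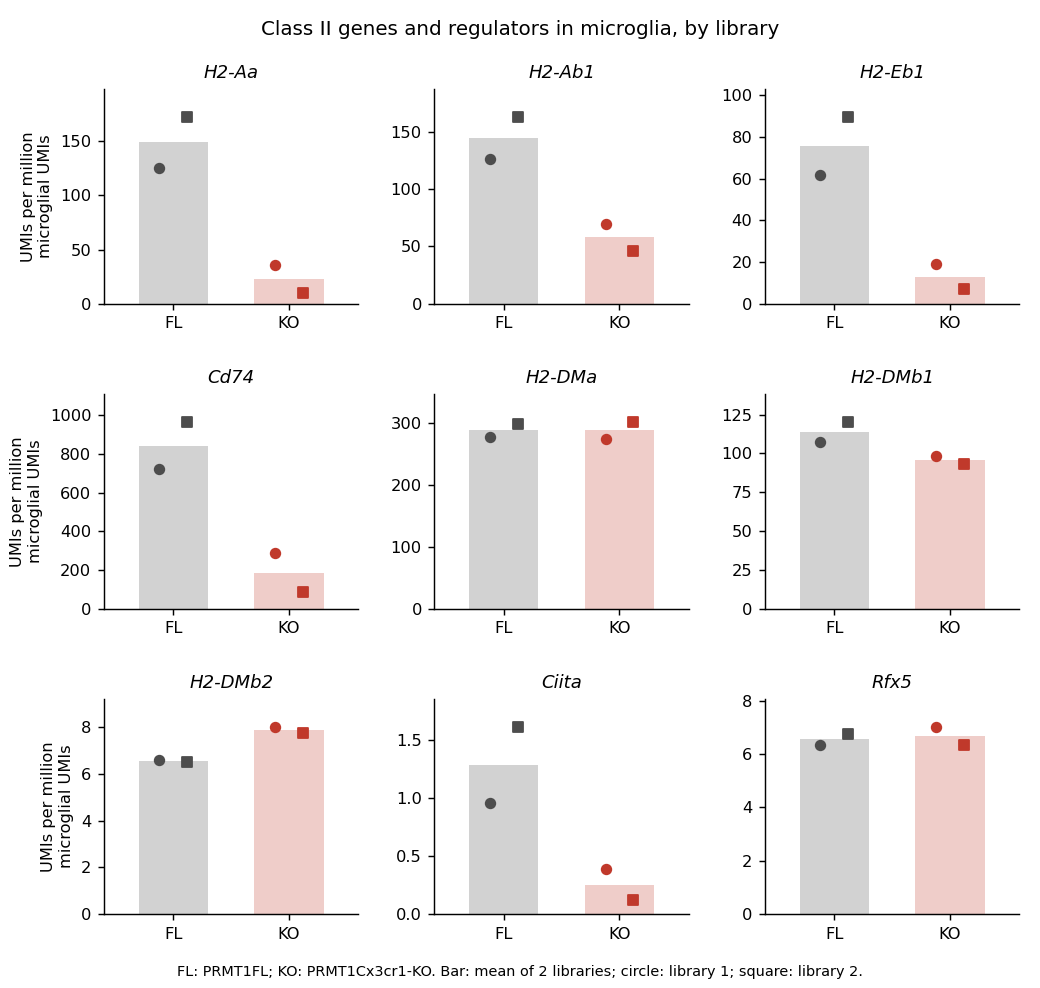
Level of each of the 9 genes in microglia, in UMIs per 1000000 microglial UMIs (CPM; each axis starts at 0 and has its own scale). Bars are means of 2 mice and points are single mice (circle, mouse 1; square, mouse 2; FL, PRMT1FL; KO, PRMT1Cx3cr1-KO); H2-Aa, H2-Ab1, H2-Eb1, Cd74 and Ciita lie far lower in KO, while H2-DMa and Rfx5 overlap.

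The microglial calls changed with the mice used. They also changed with the test and the filter on low counts when no mouse was left out. Without PRMT1FL mouse 1 or mouse 2 no member was called by edgeR (4 genes were called lower in each fit, 0.0283 and 0.0279%, with 1224 and 1236 genes at an unadjusted p under 0.05). Without PRMT1Cx3cr1-KO mouse 1, 1125 of 14319 genes (7.86%) were called lower, among them 6 members (all but H2-DMa, H2-DMb2 and Rfx5). Without PRMT1Cx3cr1-KO mouse 2, 262 of 14234 genes (1.84%) were called lower, among them 5 members (Cd74, H2-Aa, H2-Ab1, H2-Eb1 and Ciita). The lone mouse of a group is then assumed to vary like the others. In all 15 alternatives the log2 fold changes of H2-Aa (-4.03 to -2.09), H2-Ab1 (-1.73 to -1.10), H2-Eb1 (-3.53 to -1.98) and Cd74 (-3.40 to -1.59) stayed negative, as did those of Ciita in the 14 that tested it.

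The balance among the chains also differed between the groups in microglia. Per 100 UMIs of Cd74, H2-Ab1 had 17.5 and 16.9 UMIs in PRMT1FL mice, against 24.1 and 54.6 UMIs in PRMT1Cx3cr1-KO mice. H2-Aa had 17.5 and 17.9 against 12.5 and 11.5. In Mrc1-positive cells the same H2-Ab1 ratio was 25.2 and 23.8 against 23.5 and 25.1, so the groups overlapped there, while H2-Aa had 34.4 and 34.8 against 36.8 and 37.2, higher in both PRMT1Cx3cr1-KO mice. H2-DMa counted 38.5 and 30.9 UMIs per 100 of Cd74 in PRMT1FL microglia and 94.6 and 355 in PRMT1Cx3cr1-KO microglia. Tags from the 3′ end are not scaled by gene length, so such ratios are compared between mice and not read as ratios of transcripts.

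To compare at equal depth the share of cells with these transcripts and the level in those cells, every cell was thinned to 2000 UMIs. Cells with at least 1 UMI of H2-Aa, H2-Ab1 or H2-Eb1 were 18.8 and 21.6% of PRMT1FL microglia and 12.2 and 8.60% of PRMT1Cx3cr1-KO microglia, out of 7242 to 10006 cells a mouse (512 to 960 shallower cells a mouse were left out). In those cells the mean of the 3 genes was 3.92 and 4.42 UMIs against 2.13 and 1.49 UMIs. Both the share and this pooled level were lower in each PRMT1Cx3cr1-KO mouse than in each PRMT1FL mouse. The pooled level also depends on which gene is detected. In PRMT1Cx3cr1-KO mice H2-Ab1 was found in 8.92% of cells (mean of 2 mice), H2-Aa in 2.15% and H2-Eb1 in 1.32%. Gene by gene, the log2 change between group means was -2.29 in share and -0.48 in level for H2-Aa. It was -0.78 and -0.70 for H2-Ab1, and -2.34 and -0.11 for H2-Eb1. A mean over cells with at least 1 UMI cannot fall below 1. At such low counts a cell with less RNA can be left without a UMI, which lowers the share. Share and level therefore cannot tell fewer expressing cells from less RNA per cell. Cells with all 3 chains detected were 3.59 and 4.75% against 0.853 and 0.207%. Without thinning, cells with any of the 3 were 37.1 and 42.4% against 30.4 and 27.4%.

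Among single genes, a UMI of H2-Aa was present in 9.28 and 11.7% of PRMT1FL microglia, against 3.40 and 0.903% of PRMT1Cx3cr1-KO microglia, and one of Cd74 in 31.9 and 36.7% against 21.7 and 9.25%. The share for H2-DMa was 39.1 and 41.9% against 39.7 and 42.4%, and its mean in positive cells was within 1.33 to 1.39 UMIs in all 4 mice. For H2-Eb1 the mean in positive cells was 2.48 and 2.60 against 2.02 and 2.69 UMIs at this depth, with overlapping groups, but was lower in both PRMT1Cx3cr1-KO mice without thinning (4.90 and 6.09 against 3.52 and 3.59 UMIs). Thinned to 1000 UMIs it was 1.87 and 1.85 against 1.56 and 1.83 UMIs, also without overlap. For Cd74 that mean was 5.65 and 6.36 UMIs against 2.99 and 2.10 UMIs. Lower CPM of a gene over a class cannot by itself tell fewer expressing cells from less RNA per cell, and a thinned share near 1% rests on few molecules.

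**Figure D2:**
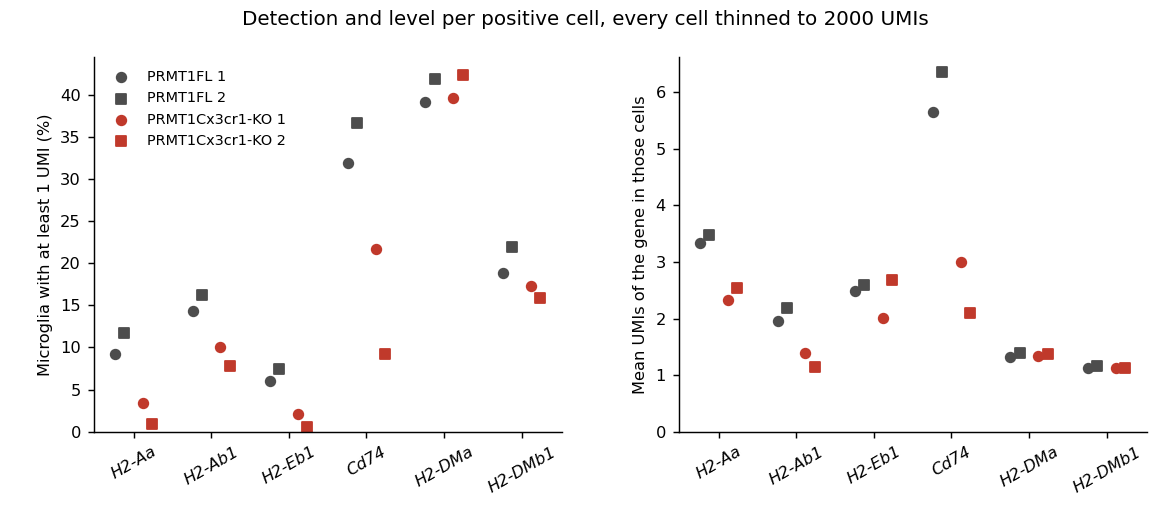
Left, percentage of microglia with at least 1 UMI of each gene. Right, mean UMIs of the gene in those cells; every cell was thinned to 2000 UMIs, and each point is 1 mouse (circle, mouse 1; square, mouse 2). Shares of Cd74, H2-Aa, H2-Ab1 and H2-Eb1 are lower in both PRMT1Cx3cr1-KO mice, and H2-DMa is level in both panels.

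Free RNA in droplets can give UMIs to cells that do not express a gene. The neutrophil-like cells, which should lack class II and came only from PRMT1FL mice (21 and 38 cells), held the 4 chains at 14.4 and 45.2 CPM, from 1 and 7 UMIs. Thinned to 2000 UMIs, 0 of 11 and 0 of 23 of them had a UMI of H2-Aa, H2-Ab1 or H2-Eb1, which allows a share of up to 27.3 and 13.04% from counting error alone. Their median depth was 4612 and 5354 UMIs, against 6835 and 7674 UMIs in the microglia of the same mice. Cluster 8 (54, 75, 88 and 10 cells, median 849 UMIs) was also led by neutrophil genes and was not used here. Its microglial markers summed to 10591 CPM and its neutrophil markers to 6813 CPM. In a cluster with astrocyte, oligodendrocyte and endothelial markers, the chains were at 687 and 422 CPM in PRMT1FL mice and at 7.78 CPM (1 UMI) and 0 UMIs (up to 50.8 CPM) in PRMT1Cx3cr1-KO mice, where it had 50 and 26 cells.

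Cells with a Ciita UMI held more of the chains. Microglia with a Ciita UMI numbered 73 and 97 in PRMT1FL mice, against 31 and 8 in PRMT1Cx3cr1-KO mice. H2-Aa, H2-Ab1 and H2-Eb1 together were at 3590.3 and 4164 CPM in these cells of PRMT1FL mice, against 288 and 358 CPM in microglia without one. In PRMT1Cx3cr1-KO mice they were at 2136 and 3628 CPM with a Ciita UMI and at 115 and 58.3 CPM without. The chains were thus far higher in cells with a Ciita UMI in each of the 4 mice, and in cells without one they were lower in each PRMT1Cx3cr1-KO mouse than in either PRMT1FL mouse. Cells with a Ciita UMI were deeper (medians of 7626 to 13891 UMIs, against 6279 to 7114 without), and a cell without a UMI may still hold the transcript.

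The loading chains and Rfx5 tracked the chains less closely within microglia. In thinned cells of PRMT1FL mice, Cd74 was 4.12 and 4.08 higher on the log2 scale in cells with a UMI of H2-Aa, H2-Ab1 or H2-Eb1 than in cells without. H2-DMb1 was 0.46 and 0.56 higher on that scale and H2-DMa 0.18 and 0.17 higher. In PRMT1Cx3cr1-KO mice those differences were 3.48 and 2.997 for Cd74, 0.32 and 0.18 for H2-DMb1, and 0.12 and 0.26 for H2-DMa. Over the 24 sums per microglial cluster and mouse, the log2 level of Ciita correlated with the mean log2 level of the 4 chains at Pearson r = 0.77 and that of H2-DMb1 at r = 0.67. The values were 0.08 for H2-DMa, -0.24 for H2-DMb2 and -0.10 for Rfx5. Sums of 1 mouse share a library and its depth, so these are descriptions without a test.

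The lower chain levels were spread over the microglial clusters. The 4 chains summed were lower in each PRMT1Cx3cr1-KO mouse than in either PRMT1FL mouse in 5 of 6 clusters, and PRMT1Cx3cr1-KO means there were 21.0 to 34.5% of PRMT1FL means. In cluster 3, which had the highest chain levels (led by Ttr, Hspa1b and Clec4a3), the sum was 1559 and 2099 CPM in PRMT1FL mice and 904 and 358 CPM in PRMT1Cx3cr1-KO mice. In cluster 4, led by Gdf15 and made mostly of PRMT1Cx3cr1-KO cells (293, 303, 1695 and 2104 cells), it was 359 and 217 CPM against 143 and 49.3 CPM. Cluster 5, led by the cycling genes Mki67 and Top2a, was the exception, at 183 and 437 CPM against 196 and 99.8 CPM. Ciita was lower without overlap in 4 of the 6 clusters, H2-DMb1 in 5, and H2-DMa, H2-DMb2 and Rfx5 in 1 each. H2-DMb2 was higher without overlap in 4 clusters and Rfx5 in 1. Over microglia as a whole 17.7% of all genes tested were lower without overlap, and no such share was counted within single clusters. The cluster counts of Ciita rest on few UMIs: in cluster 2 it was at 0.209 and 0.409 CPM against 0 and 0 CPM. Clusters of a mouse share its library and are not replicates.

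**Figure D3:**
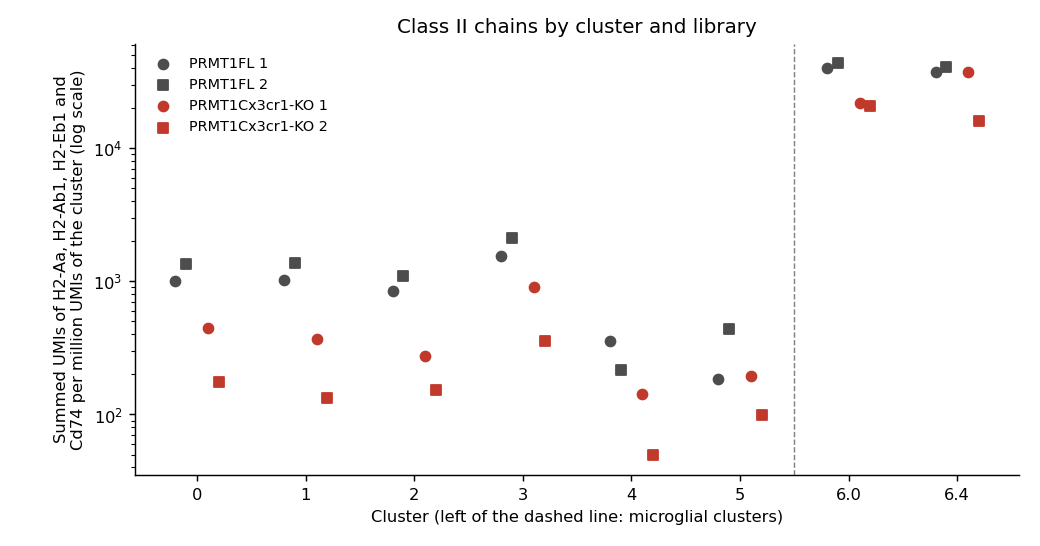
Summed UMIs of Cd74, H2-Aa, H2-Ab1 and H2-Eb1 per 1000000 UMIs of a cluster (log scale) in each mouse (circle, mouse 1; square, mouse 2). Clusters 0 to 5 are microglial, 6.0 is border-associated macrophage-like and 6.4 is unnamed; in clusters 0 to 4 and in 6.0 both PRMT1Cx3cr1-KO points lie below both PRMT1FL points.

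Mrc1-positive cells had far higher chain levels than microglia, and there the 4 chains fell in PRMT1Cx3cr1-KO mice to 44.4 to 52.9% of the PRMT1FL mean. H2-Aa was at 1967 and 2179 CPM in PRMT1FL mice and at 1339 and 855 CPM in PRMT1Cx3cr1-KO mice (edgeR, log2 fold change -0.96, SE 0.16, adjusted p = 0.00497). H2-Ab1 was at 1442 and 1492 CPM against 852 and 578 CPM (log2 fold change -1.08, adjusted p = 0.00127). H2-Eb1 was at 1542 and 1750.2 CPM against 842 and 621 CPM (log2 fold change -1.21, adjusted p = 0.000417). In none of these genes did the groups overlap. Of all genes tested in this class, 18.6% had both PRMT1Cx3cr1-KO mice below both PRMT1FL mice. Cd74 was at 5716 and 6261 CPM against 3633 and 2300.3 CPM (log2 fold change -1.05, adjusted p = 0.00184). These 4 were the members called among the 7 tested, where 61 of 8011 genes (0.761%) were called lower. Leaving out any 1 mouse kept all 4 calls, in fits that called 1.11 and 0.672% of genes lower without PRMT1FL mouse 1 and 2, and 2.26 and 0.621% without PRMT1Cx3cr1-KO mouse 1 and 2. DESeq2, which called 0.58% lower, kept those of H2-Ab1 and H2-Eb1 but not of H2-Aa (adjusted p = 0.259) or Cd74 (adjusted p = 0.149). With at least 3 Mrc1 UMIs as the limit, H2-Aa lost its call (log2 fold change -0.72, adjusted p = 0.0731 from edgeR) and the other 3 kept theirs, with 0.518% of genes called lower.

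The other members were not called in Mrc1-positive cells defined by at least 2 Mrc1 UMIs. H2-DMa was at 320 and 397 CPM against 354 and 331 CPM, and the 95% interval of its log2 fold change was -0.40 to 0.19. H2-DMb1 was at 199 and 223 CPM against 175 and 154 CPM (log2 fold change -0.40, adjusted p = 0.289 from edgeR). Ciita, with 22, 27, 10 and 36 UMIs, was at 20.6 and 23.7 CPM against 10.4 and 16.0 CPM (log2 fold change -0.69, unadjusted p = 0.0497 and adjusted p = 0.463 from edgeR). H2-DMb2 (6 to 19 UMIs a mouse) and Rfx5 (2 to 14 UMIs) were too low to be tested in this class. H2-DMb2 was at 8.41 and 5.28 CPM against 9.38 and 8.44 CPM, and Rfx5 at 2.80 and 1.76 CPM against 7.29 and 6.22 CPM. With at least 1 Mrc1 UMI as the limit, edgeR called H2-DMb1 (log2 fold change -0.75, adjusted p = 0.0101) and Ciita (log2 fold change -1.48, adjusted p = 0.0372) as well as the 4 chains, with 0.869% of genes called lower. Shares of Mrc1-positive cells with a UMI of H2-Aa, H2-Ab1 or H2-Eb1, thinned to 2000 UMIs, were 49.2 and 54.6% against 64.6 and 50.3%, so the groups overlapped. The mean of the 3 genes in those cells was 30.5 and 32.6 UMIs against 17.9 and 12.98 UMIs, without overlap.

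The Mrc1 count gathers a mixed class whose makeup varied between mice. Of these cells 36.9 and 49.1% of PRMT1FL and 47.7 and 56.7% of PRMT1Cx3cr1-KO cells lay in microglial clusters, and 50.4 and 30.6% against 37.6 and 23.3% in cluster 6.0. Between 21.3 and 32.2% were marked as doublets. By UMIs, which the sums use, cells of microglial clusters weighed more, with 739285 of 1069715 and 905887 of 1137017 UMIs in PRMT1FL mice. In PRMT1Cx3cr1-KO mice they gave 747059 of 959963 and 1807402 of 2250144 UMIs. Marked doublets gave 616788 and 527255 UMIs of the class in PRMT1FL mice and 409998 and 1292557 UMIs in PRMT1Cx3cr1-KO mice. All 9 border macrophage markers were detected in each mouse and summed to 3189 and 2629 CPM against 2067 and 1566 CPM, and all 8 microglial markers to 7762 and 8594 CPM against 8594 and 8655 CPM. Dendritic cell markers summed to 139 and 65.1 CPM against 36.5 and 24.9 CPM, with 3 or 4 of 7 detected a mouse, and monocyte markers to 115 and 66.8 CPM against 151 and 113 CPM, with 2 to 4 of 6 detected. Neutrophil markers summed to 2917 CPM in PRMT1FL mouse 1 and to 7.92 to 27.1 CPM in the other mice. Their part in the result was not tested. Restricted to Mrc1-positive cells outside microglial clusters, the log2 fold changes were -0.64 for H2-Aa, -0.79 for H2-Ab1, -0.87 for H2-Eb1 and -0.68 for Cd74. All 4 were still called (adjusted p of 0.0392, 0.00571, 0.00228 and 0.00930 from edgeR), in a fit that called 50 of 3917 genes lower. The log2 fold change of Ciita there was -0.02.

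Another class, set by clustering and not by the Mrc1 count of each cell, was the border-associated macrophage-like cluster, 6.0. Mrc1 still guided the choice. The cluster with the highest Mrc1 level was clustered again to give 6.0, which was named by a marker list that includes Mrc1. Cluster 6.0 also holds cells with fewer than 2 Mrc1 UMIs. Its leading genes included Mrc1, F13a1, Mgl2, Lyve1 and Ccr2, together with class II genes that took no part in the clustering, and it held 122, 58, 59 and 80 cells. Cd74 was at 21678 and 23486 CPM in PRMT1FL mice and at 12560.1 and 11108 CPM in PRMT1Cx3cr1-KO mice, and H2-Aa at 7215 and 7887 CPM against 3872 and 3949 CPM. For Cd74 and H2-Aa over the whole cluster, the mice of each group lay close together and the groups were far apart. Split by Mrc1 count, as given below, the PRMT1FL mice were less alike. Of all genes tested in this cluster, 18.0% had both PRMT1Cx3cr1-KO mice below both PRMT1FL mice. The log2 fold changes were -0.98 for H2-Aa, -1.05 for H2-Ab1, -1.19 for H2-Eb1 and -0.96 for Cd74, with standard errors of 0.12 to 0.14 (adjusted p of 5.77e-05, 4.07e-05, 9.95e-06 and 4.07e-05 from edgeR). These were 4 of the 7 members tested, and 20 of 4435 genes (0.451%) were called lower. All 4 remained called without any 1 of the 4 mice, in fits that called 1.07 and 0.426% of genes lower without PRMT1FL mouse 1 and 2, and 0.664 and 0.634% without PRMT1Cx3cr1-KO mouse 1 and 2.

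In the same cluster Ciita was at 71.0 and 66.4 CPM against 57.3 and 47.5 CPM, from 33, 20, 13 and 20 UMIs. Its log2 fold change was -0.45 (95% interval -1.15 to 0.25, adjusted p = 0.716 from edgeR), so at this depth neither a fall of the size of the chains nor equality was shown. H2-DMa had a log2 fold change of 0.05 (interval -0.32 to 0.43) and H2-DMb1 of -0.40 (interval -0.79 to -0.01, adjusted p = 0.480 from edgeR). Prmt1 was at 88.2 and 66.4 CPM against 106 and 71.2 CPM in this cluster, with overlapping groups (log2 fold change 0.07, standard error 0.30).

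Cells of cluster 6.0 with fewer than 2 Mrc1 UMIs held more of the chains than those with at least 2. In the former (51, 25, 18 and 38 cells) the 4 chains summed to 70181 and 54533 CPM in PRMT1FL mice and to 31361 and 24232 CPM in PRMT1Cx3cr1-KO mice. In the latter (71, 33, 41 and 42 cells) they summed to 21184 and 33957 CPM against 18321 and 17538 CPM. Of the cluster's Cd74 UMIs, the former gave 6795 of 10081 and 4128 of 7072 in PRMT1FL mice. In PRMT1Cx3cr1-KO mice they gave 1151 of 2851 and 2457 of 4678. The groups did not overlap in either set, for which no share over all genes was counted. Whether the gap differed between the sets was not tested. Ccr2, a monocyte marker, was at 382 and 267 CPM against 645 and 509 CPM in the former, and at 137 and 166 CPM against 418 and 421 CPM in the latter. F13a1, a border macrophage marker, was at 127 and 7.23 CPM against 113 and 89.2 CPM in the former. In the latter it was at 679 and 688 CPM against 352 and 408 CPM. The part of either gene was not tested.

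**Figure D4:**
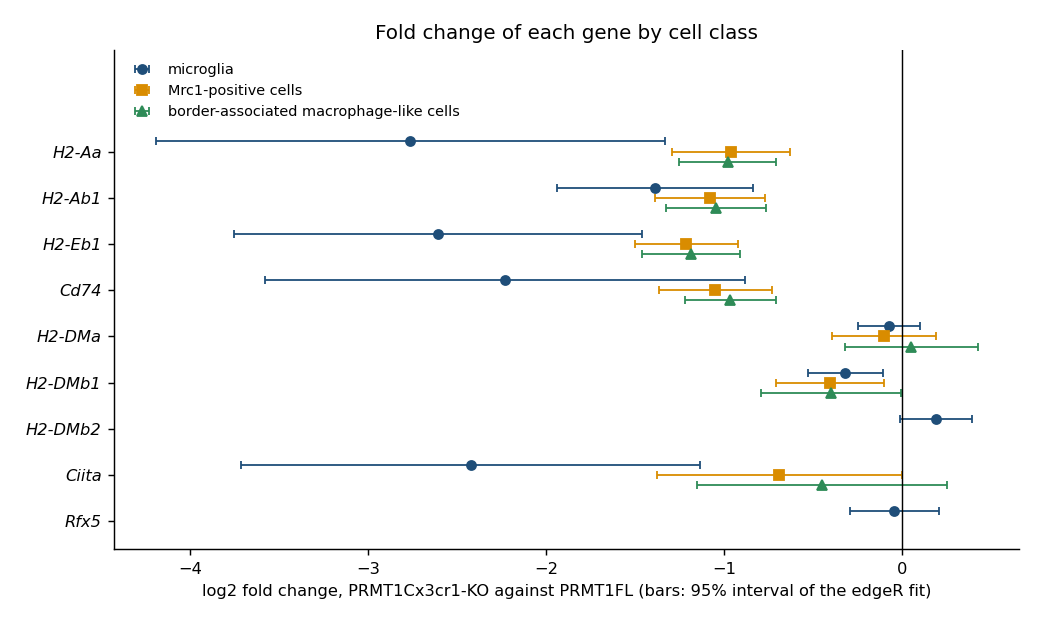
Log2 fold change (PRMT1Cx3cr1-KO against PRMT1FL, 2 mice each) of each gene tested in microglia, in Mrc1-positive cells and in border-associated macrophage-like cells; bars are 95% intervals of the edgeR fits. Microglial values of H2-Aa, H2-Eb1, Cd74 and Ciita lie between -2.76 and -2.23 with wide bars, the chains in the other classes lie near -1, and H2-DMa lies near 0 in all 3.

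The difference between microglia and Mrc1-positive cells was tested itself. In each mouse most UMIs of the Mrc1-positive class came from cells of microglial clusters, as given above. The log2 ratio of Mrc1-positive cells to microglia was 3.81 and 3.53 for H2-Aa in PRMT1FL mice, against 5.10 and 6.41 in PRMT1Cx3cr1-KO mice. For Cd74 it was 2.84 and 2.57 against 3.54 and 4.72, and for H2-Eb1 4.49 and 4.16 against 5.35 and 6.43. For H2-Ab1 it was 3.36 and 3.07 against 3.50 and 3.60. The PRMT1Cx3cr1-KO mice had the higher ratio in all 4 genes, by the least for H2-Ab1. The share of all genes with such an order of ratios was not counted. By edgeR with the mouse as a block, the fold change differed between the classes by 2.07 for H2-Aa, 1.56 for H2-Eb1 and 1.43 for Cd74, all called (134 of 13414 genes were, 0.999%), and by 0.34 for H2-Ab1 (adjusted p = 0.148). With at least 1 Mrc1 UMI as the limit, H2-Eb1 and Cd74 lost their calls, in a fit that called 184 of 13564 genes. For the regulators, from few UMIs, the edgeR fit with at least 2 gave 1.84 for Ciita (adjusted p = 0.389) and 1.61 for Rfx5 (adjusted p = 0.546). The standard errors of that fit for H2-Aa, H2-Eb1 and Cd74 (0.09 to 0.11) are smaller than the gap between the 2 PRMT1Cx3cr1-KO mice. For H2-Ab1 the standard error (0.11) is about as large as that gap (3.50 and 3.60). A limma fit on these ratios, 2 mice against 2, gave the same sizes with standard errors of 0.31 to 0.37 for the 3 genes and called none of 13414 genes (928 had an unadjusted p under 0.05), with adjusted p of 0.349 for H2-Aa, 0.468 for H2-Eb1 and 0.673 for Cd74.

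Mrc1-positive cells, though 1.05 to 1.65% of cells, gave 9.58 and 10.5% of all UMIs of the 4 chains in PRMT1FL mice and 14.9 and 33.3% in those of PRMT1Cx3cr1-KO mice. Microglia gave 76.3 and 79.9% against 78.0 and 45.2%. In PRMT1Cx3cr1-KO mouse 2, therefore, most chain UMIs came from cells outside the microglial class.

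The listed pathway genes, like the 9 members, gave no calls in microglia. Of 43 listed genes, 42 were in the count tables and 41 were tested, and edgeR called none in either direction. That fit called only 54 of 13917 genes, so few calls could fall among 41. Their median log2 fold change was -0.05, against 0.00 for all genes tested. The other factors of the enhanceosome (Rfxap and Rfxank of RFX, the NF-Y subunits Nfya, Nfyb and Nfyc, and Creb1) lay between -0.08 (Creb1) and 0.07 (Nfyc). Upstream factors and co-activators had a median of -0.01 over 13 genes, with Irf1 the highest at 0.32. Irf1, which acts upstream of Ciita, was at 58.9 and 61.1 CPM in PRMT1FL mice and at 102 and 53.9 CPM in PRMT1Cx3cr1-KO mice, which lay on either side.

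H2-Oa and H2-Ob, the chains of H2-DO that restrains H2-DM, were lower without overlap. H2-Oa was at 35.6 and 39.4 CPM against 26.1 and 16.0 CPM (log2 fold change -0.90, adjusted p = 0.128 from edgeR), and H2-Ob at 27.3 and 26.9 CPM against 23.1 and 19.6 CPM (log2 fold change -0.42, adjusted p = 0.122). Of the genes that supply peptide, the proteases and reductase of the lysosome, Ctsl was lowest (log2 fold change -0.51) and Ifi30 highest (0.37). The ligases March1 and March8, which remove class II from the surface, were at 0.01 and 0.15 on that scale. Co-stimulatory genes ran from -0.24 (Cd86) to 0.95 (Cd40), the latter at 1.36 and 0.848 CPM against 2.09 and 2.45 CPM. Among 9 class I genes the log2 fold changes ran from -0.59 (H2-D1) to -0.12 (Psmb8), with a median of -0.25.

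In Mrc1-positive cells 38 listed genes were tested and none was called, with a median log2 fold change of -0.13. Of all genes tested there, 97 of 8011 were called. The values there ran from -0.78 (H2-Oa) to 0.36 (Ifi30), and Irf1 was at 0.24. In the border-associated macrophage-like cluster 29 were tested and none was called (median -0.25), where 31 of 4435 genes were called.

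The 8 genes outside these lists whose levels over the 24 microglial sums most resembled the mean of the 4 chains, out of 7403 compared, were Siglecf (Pearson r = 0.88), Itgax, Cpq, Ephx1, Gm2a, Cd22, Lap3 and Alas1 (0.78). Itgax, which encodes CD11c, was at 129 and 134 CPM in PRMT1FL microglia and at 64.6 and 30.4 CPM in PRMT1Cx3cr1-KO microglia (log2 fold change -1.53, adjusted p = 0.108 from edgeR). Siglecf was at 53.5 and 58.8 CPM against 36.7 and 22.2 CPM (log2 fold change -0.997, adjusted p = 0.114). These sums include all 4 mice, so the choice of the 8 genes itself favours genes that are lower in PRMT1Cx3cr1-KO mice.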

How the data were processed

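Per the file headers and the study's methods, the authors ran Cell Ranger 3.1.0 on the mouse build mm10 and deposited UMI counts, per gene and barcode and not normalized; the submitters' notes also name Seurat 3.2.0 and Scanpy 1.5.2, whose output was not used here. The limits of the methods were applied to barcodes: 200 to 6000 genes detected, and no more than 10% of UMIs from mitochondrial genes. The 4 libraries were clustered together (2000 variable genes without the members and the pathway list, 20 principal components, Leiden at resolution 0.3 with leidenalg 0.10.2). The cluster with the highest Mrc1 level was then clustered again with the same settings. Clusters were counted as microglial by summed marker levels of at least 2 times every other list, a median depth of at least a fraction of that of all cells, and no other list leading their top genes, a rule set after the clusters were seen. Barcodes resembling simulated doublets were marked and kept. UMIs were summed per mouse and class, because the mouse is the replicate, and tested with edgeR 4.0.16 (TMM, filterByExpr, quasi-likelihood, Benjamini-Hochberg over all genes). DESeq2 1.42.0, limma 3.58.1, other class definitions and omission of each mouse were alternatives. CPM are UMIs per 1000000 UMIs of the class. The scripts were tested on simulated data. Members, lists, markers and tests were chosen with earlier results of these data known. Genes were named by a fixed rule: all members, any called gene and the lowest and highest microglial fold change of each pathway group, and the 8 genes most like the chains (mean CPM of at least 10, sums of at least 50 cells). 1 value that this rule names is not reported here. Intervals of the fits cover the spread between 2 mice a group only.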

Additional observations from a re-analysis of the deposited data

Results flagged for a closer look

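The fold changes of 3 chain genes differed between Mrc1-positive cells (at least 2 Mrc1 UMIs) and microglia in a test of the difference itself. With at least 1 Mrc1 UMI as the limit, H2-Eb1 and Cd74 lost their calls. By edgeR, the log2 fold change was higher in Mrc1-positive cells than in microglia by 2.07 for H2-Aa, 1.56 for H2-Eb1 and 1.43 for Cd74. In 2 of 2 PRMT1Cx3cr1-KO mice the ratio of the classes was above that of either PRMT1FL mouse for each gene. The share of all genes with that order was not counted. For H2-Aa the log2 ratio of Mrc1-positive cells to microglia was 5.10 in PRMT1Cx3cr1-KO mouse 1 and 6.41 in mouse 2, and limma on the ratios per mouse called none of the 3.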

How the results depend on the processing

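In microglia, where edgeR called 54 genes and 0 members, the calls depended on the settings while the directions of H2-Aa, H2-Ab1, H2-Eb1, Cd74, Ciita, H2-DMa and H2-DMb1 did not. Genes and members called were 1332 and 6 with no filter on low counts, 652 and 5 with DESeq2, 749 and 5 over all cells, 1606 and 5 with the cluster as a term, and 4 to 2237 and 0 to 6 when 1 mouse was left out. The log2 fold change of Rfx5 ranged from -0.136 to 0.0533 when 1 mouse was left out (positive without PRMT1Cx3cr1-KO mouse 2), and was 0.0066 over all cells and 0.0057 with the cluster as a term.

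The labels number the mice of each group 1 and 2, but same-numbered mice are different animals, and their deviations from the group means correlated at 0.16 over 13917 genes with only 2 pairs, so the numbers were not taken as pairing. With the replicate block, 781 genes and 5 members were called in microglia, and 210 genes and 4 members in Mrc1-positive cells.

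In Mrc1-positive cells, 97 genes and 4 members became 227 genes with no filter, 34 genes and 2 members with DESeq2, 54 genes without doublets, 123 genes and 6 members with at least 1 Mrc1 UMI (H2-DMb1 and Ciita added), 65 genes and 3 members with at least 3 (H2-Aa lost), 31 genes in the border-associated macrophage-like cluster, and 86 to 277 genes when 1 mouse was left out (in that cluster 67 and 43 without PRMT1FL mouse 1 and 2, and 54 and 44 without PRMT1Cx3cr1-KO mouse 1 and 2). The log2 fold change of H2-DMa turned to 0.0518 in that cluster and 0.155 outside microglial clusters, ranged from -0.258 to 0.0747 when 1 mouse was left out (positive without PRMT1FL mouse 2), and in the cluster to 0.11 without PRMT1FL mouse 2 and 0.21 without PRMT1Cx3cr1-KO mouse 1. For the difference between the classes, 134 genes became 55 with the cluster, 81 outside microglial clusters and 61 to 160 when 1 mouse was left out, and limma called 0 genes and 0 members (0 and 0 with the cluster; 928 and 840 genes at an unadjusted p under 0.05). Differences that changed sign were H2-Ab1 at -0.40 with at least 1 Mrc1 UMI; H2-DMa at -0.0273 (DESeq2 size factors), -0.00082 (no filter), -0.0121 (5% mitochondrial UMIs), -0.18 (1 Mrc1 UMI) and -0.114 to 0.118 (1 mouse left out, negative without PRMT1FL mouse 1 or PRMT1Cx3cr1-KO mouse 1); H2-DMb1 at 0.16 (3 Mrc1 UMIs) and 0.12 (outside microglial clusters); and H2-DMb2 at -0.20 (no doublets), -0.0997 to 0.530 (1 mouse left out, negative without PRMT1FL mouse 2), -2.22 (cluster) and -4.54 (limma, cluster). With at least 1 Mrc1 UMI, 184 genes and 2 members were called for the difference, 1 of the members with a negative sign. H2-Eb1 and Cd74 lost their calls there. With at least 3, 109 genes and 4 members were called. The cause of these changes was not tested. The limma fits, the cluster without each mouse and the addition of the Ms4a7-led clusters were chosen after seeing the data. Few UMIs of Ciita, H2-DMb2 and Rfx5 limit the Mrc1-positive class.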
